A study of Mus musculus with 23 samples.

Results

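Inhibitory checkpoint receptors are surface proteins that damp the activation of T cells and innate lymphocytes. The genes described here are 8 receptor genes chosen by symbol: Pdcd1 (PD-1), Lag3 (LAG-3), Tigit, Cd96, Cd160, Btla, Havcr2 (TIM-3) and Ctla4. They were read in RNA counts of 35645 genes and in ATAC-seq counts of 51412 peaks, where the authors had assigned 28 peaks to them. All 8 genes were among the 17124 genes tested, and all 28 peaks were among the 51292 peaks tested. They were not picked by a cut on level or fold change, but earlier results of these data were known when they were chosen. Whether each receptor damps the cells sorted here was not tested.

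PD-1 binds PD-L1 and PD-L2 and recruits the phosphatase SHP-2. LAG-3 binds MHC class II and the liver protein FGL1. TIGIT and CD96 bind PVR and compete there with the activating receptor CD226. CD160 and BTLA share the ligand HVEM, which Tnfrsf14 encodes, CTLA-4 binds CD80 and CD86 in competition with CD28, and TIM-3 binds galectin-9 and CEACAM1. In the liver, several of these receptors have been used to tell tissue-resident type 1 innate lymphoid cells (ILC1s) from circulating natural killer (NK) cells.

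The RNA came from sorted mouse liver populations. NK cells positive for the reporter S1pr5eGFP gave 4 libraries (mice 1, 4, 5 and 6). ILC1s were parted by present granzyme C (GzmC) and by a mark of its past expression (GzmcFM, a fate map that is driven by the granzyme C gene). DP cells carried both (4 libraries, mice 3 to 6), FMSP cells carried only the mark (4 libraries, mice 3 to 6) and DN cells carried neither (3 libraries, mice 2, 4 and 6). Each RNA library held every sorted cell of 1 population from 1 mouse, and the labels give no age or sex. ATAC-seq, a readout of open chromatin, had 4 groups of 2 libraries with 50000 cells each: liver NK, spleen NK, liver ILC1 and salivary gland ILC1. For these the labels give S1pr5eGFP+ for NK and GzmC+GzmcFM+ for ILC1, whereas the design text gives CD49b+CD49a- and CD49a+ gates, so the gate is not settled.

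RNA libraries held 51641248 to 73309063 counts and ATAC libraries 5609587 to 26944890. Levels are CPM (counts scaled to a common library size, with edgeR's TMM scaling), as mean ± SD over libraries. A call is an edgeR quasi-likelihood adjusted p under 0.05. The granzyme C gene Gzmc stood at 374 ± 83.6 CPM in DP, 30.4 ± 8.68 in FMSP, 11.4 ± 1.87 in DN and 2.31 ± 1.34 in NK, and S1pr5 at 510 ± 248 CPM in NK and 60.0 ± 34.9 or less in the ILC1 populations. The 8 NK cell markers summed to 4635 to 5180 CPM in NK libraries. In ILC1s they summed to 228 to 835 CPM in DN, 73.9 to 164 in FMSP and 70.4 to 144 in DP. The 6 ILC1 markers summed to 21.9 to 39.2 CPM in NK and 1042 to 1790 in DN. They reached 1873 to 2051 CPM in FMSP and 2253 to 2391 in DP. Of the ILC1 populations, DN thus had the highest NK marker sums and the lowest ILC1 marker sums. Markers of other cells moved too. The 14 T cell markers summed to 1935 to 2982 CPM in DP, 2143 to 3570 in FMSP and 2224 to 3039 in DN, beside 519 to 744 in NK, where Cd40lg was at 0. Of the 13 tested, 4 were called higher than in NK in DP (Cd3g, Trbc1, Trbc2 and Bcl11b), 10 in FMSP and 9 in DN. The 12 hepatocyte markers summed to 203 to 382 CPM in DP, 166 to 1974 in FMSP and 208 to 856 in DN, beside 72.5 to 186 in NK, with 1 of 12 (Trf) called in each. Of the B cell list Ighm was called in DP and FMSP (1 of 6), of the neutrophil list Mmp9 in all 3 populations (1 of 5), and of the Kupffer cell (7) and sinusoidal endothelium (5 tested) lists none.

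The sequence just before the transcription start was read from RefSeq promoters of GRCm38.p6, as 250 bases that end 1 base before the start. The table held 8 such windows for 7 of the genes, 2 of them for Cd160. The windows of Cd160 (internal start), Tigit and Btla are shown as examples in which an ATAC peak covers the window and differs between groups below. Those of Ctla4, Cd96 and Havcr2, also covered by a peak called in some comparison, are not shown. The Pdcd1 window is shown because the gene had no RNA counts in NK and no ATAC peak lies over its start. Each sequence reads 5′ to 3′ on the gene's strand, and capitals mark the motifs found.
Cd160, chr3:96814522-96814771, minus strand: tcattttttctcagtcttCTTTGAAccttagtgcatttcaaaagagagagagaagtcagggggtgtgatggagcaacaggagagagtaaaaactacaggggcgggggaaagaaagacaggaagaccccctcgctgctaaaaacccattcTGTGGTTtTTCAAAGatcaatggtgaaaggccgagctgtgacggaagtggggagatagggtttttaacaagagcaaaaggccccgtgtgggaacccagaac
Tigit, chr16:43664185-43664434, minus strand: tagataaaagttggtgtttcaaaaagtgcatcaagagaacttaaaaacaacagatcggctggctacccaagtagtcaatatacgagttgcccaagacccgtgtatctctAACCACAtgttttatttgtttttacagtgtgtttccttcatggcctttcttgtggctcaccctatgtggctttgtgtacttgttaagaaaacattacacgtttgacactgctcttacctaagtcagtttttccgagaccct
Btla, chr16:45224087-45224336, plus strand: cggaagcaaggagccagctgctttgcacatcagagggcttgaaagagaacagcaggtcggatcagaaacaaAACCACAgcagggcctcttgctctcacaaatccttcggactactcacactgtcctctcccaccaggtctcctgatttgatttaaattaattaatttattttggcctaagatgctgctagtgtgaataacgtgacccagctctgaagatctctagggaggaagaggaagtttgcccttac
Pdcd1, chr1:94052554-94052803, minus strand: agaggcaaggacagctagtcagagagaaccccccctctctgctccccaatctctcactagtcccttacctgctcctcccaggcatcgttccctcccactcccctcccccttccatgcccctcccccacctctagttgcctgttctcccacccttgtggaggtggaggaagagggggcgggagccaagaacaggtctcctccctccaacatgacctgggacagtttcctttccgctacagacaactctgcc

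Each window was searched on both strands for 7 short motifs. The RUNX motif TGTGGTT was in 6 of the 8 windows: both of Cd160 and those of Tigit, Btla, Cd96 and Havcr2. It was in 4.40% of 32851 promoter windows of the same length. It lay 101 to 95 bases before the internal Cd160 start, 141 to 135 bases before the Tigit start and 179 to 173 bases before the Btla start. The TCF-1 motif CTTTGAA occurred at 2 places in the internal Cd160 window, 1 of them 1 base from the RUNX motif, and was in 4.46% of all windows. The NFAT motif TGGAAA was found for Ctla4 and Cd96 (18.6% of all windows) and the AP-1 motif TGANTCA for Havcr2 (6.75%). The T-box motif TCACACCT (1.12% of all windows), the NR4A motif AAAGGTCA (1.34%) and the ETS motif CCGGAAG (6.91%) were in none of the 8, and the Pdcd1 window held none of the 7 motifs.

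The first question was how the receptor genes differ in RNA between the ILC1 populations and NK cells. In DP, 4 of the 8 genes were called higher than in NK (Pdcd1, Lag3, Cd160 and Tigit) and 0 lower, where 4.08% of all genes tested were called in either direction, 2.51% higher and 1.58% lower. In FMSP, 3 were higher (Pdcd1, Lag3 and Cd160) and 0 lower, with 4.07% of all genes called, 2.48% higher and 1.59% lower. The same 3 genes were higher in DN and 0 lower, with 2.99% of all genes called, 1.81% higher and 1.18% lower. These comparisons share the 4 NK libraries. The median log2 fold change of the 8 genes was 2.12 in DP, 1.04 in FMSP and 2.02 in DN, beside 0.03, 0.11 and 0.17 over all genes tested. These medians take in Ctla4 and Havcr2, whose SEs are 2 or more, and do not rank the populations: for FMSP against DN the median of the 8 genes was 0.65. With library totals in place of TMM the last became 0.11, 0.22 and 0.37, the genes named above were called there too, and Tigit was also called in FMSP. In sorted bulk samples, more cells that express a gene and more RNA of it per cell cannot be told apart.

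**Figure D1:**
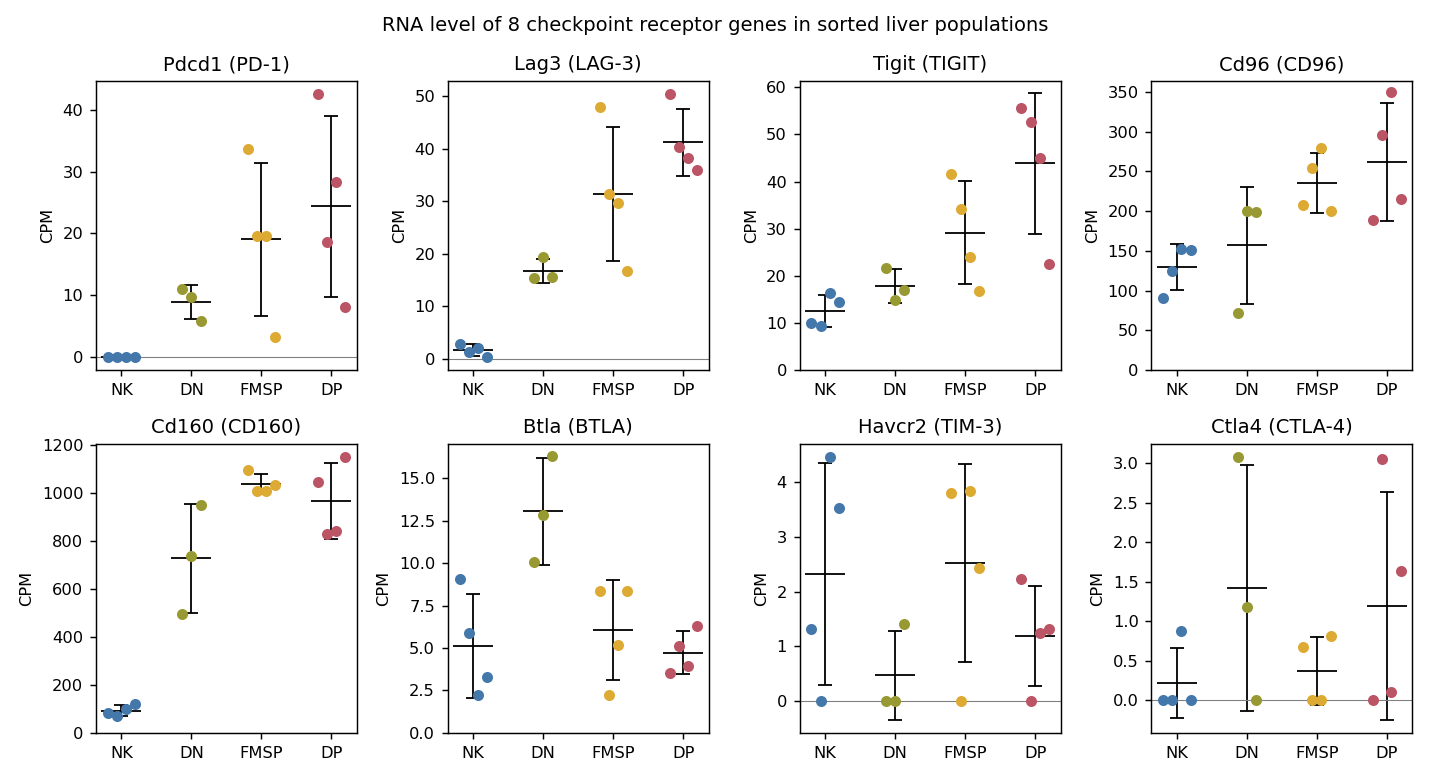
RNA level in CPM of each receptor gene in every library (points) of NK, DN, FMSP and DP, with the mean ± SD (bars); each panel has its own axis. Pdcd1 sits at 0 in all 4 NK libraries, Lag3 and Cd160 do not overlap between NK and any ILC1 population, and Havcr2 and Ctla4 stay below 5 CPM.

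Pdcd1 (chr1:94038305-94052553) had 0 counts in all 4 NK libraries and was present in all 11 ILC1 libraries. It stood at 11.04, 9.71 and 5.75 CPM in DN of mice 2, 4 and 6. In mice 3, 4, 5 and 6 it stood at 33.6, 19.6, 19.6 and 3.32 CPM in FMSP and at 42.5, 18.7, 28.3 and 8.15 CPM in DP. Mouse 3 gave the highest and mouse 6 the lowest level in both populations, and the 3 ILC1 populations overlapped. Counts covered 14713 genes in FMSP and 15188 in DP of mouse 3, and 14592 in NK of mouse 1. They covered 16193 or more in every library of mice 4 to 6. DN had no library of mouse 3, and the part of these differences in the levels was not tested. Against a floor of 3 counts over the NK group, Pdcd1 was 1978-fold higher in DP (edgeR adjusted p 3.77e-05), 1544-fold in FMSP (4.68e-05) and 716-fold in DN (0.00017). These ratios depend on that floor, which covers counting error only, and are no sure lower bounds. Havcr2, described below, had exact zeros in some libraries beside 70 to 275 counts in the others.

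Lag3 (chr6:124904359-124912434) was counted in every library. It stood at 2.91, 1.32, 2.06 and 0.344 CPM in NK of mice 1, 4, 5 and 6, and at 15.3, 19.3 and 15.5 CPM in DN of mice 2, 4 and 6. FMSP of mice 3 to 6 gave 47.9, 31.3, 29.6 and 16.7 CPM, and DP gave 50.3, 40.4, 38.2 and 35.9 CPM. Every ILC1 library was above every NK library, and DP was above FMSP within each of the 4 mice. The log2 difference from NK was 4.64 ± 0.54 (SE) in DP (24.9-fold, edgeR adjusted p 9.17e-05), 4.24 ± 0.53 in FMSP (0.000182) and 3.33 ± 0.53 in DN (0.00233). The DN call was lost in a fit of DN and NK alone (3.34, adjusted p 0.0673).

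Tigit (chr16:43626137-43665125) and Cd96 (chr16:46035652-46120248) encode the receptors that bind PVR. Tigit stood at 9.92, 9.41, 16.4 and 14.5 CPM in NK of mice 1, 4, 5 and 6, and at 21.8, 14.8 and 17.0 CPM in DN of mice 2, 4 and 6. It stood at 41.6, 34.1, 24.1 and 16.9 CPM in FMSP of mice 3 to 6, and at 55.5, 52.5, 45.0 and 22.4 CPM in DP. The DP libraries were all above NK and DN, while DN overlapped NK and FMSP, and within each of mice 3 to 6 the DP level was above the FMSP level. Against NK, Tigit was higher by 1.80 ± 0.35 log2 in DP (3.49-fold, edgeR adjusted p 0.00648). It differed by 1.22 ± 0.35 in FMSP (adjusted p 0.0711) and 0.51 ± 0.37 in DN (0.564), which were not called. The FMSP difference was called without FMSP of mouse 6 (1.40, adjusted p 0.039), with library totals (1.29, 0.0339), in DESeq2 (1.23, 0.00949) and after dropping DN of mouse 2 and FMSP of mice 5 and 6, the 3 libraries richest in hepatocyte markers (1.59, 0.0338). In RefSeq the Tigit locus overlaps Zbtb20 and Mir568, and the deposited counts give no strand.

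Cd96 had its highest mean in DP, at 262 ± 74.0 CPM (n = 4), then 235 ± 37.8 in FMSP (n = 4), 157 ± 73.4 in DN (n = 3) and 130 ± 29.0 in NK (n = 4). The highest NK library (153 CPM) lay below the lowest of FMSP (201) and of DP (188), while DN ran from 72.1 CPM in mouse 2 to 200 CPM in mouse 4. The differences from NK were 1.02 ± 0.31 log2 in DP (edgeR adjusted p 0.0947), 0.86 ± 0.31 in FMSP (0.181) and 0.28 ± 0.33 in DN (0.768), none of them called. With the mouse as a block, which compares populations within animals, Cd96 was called in DP (0.94, adjusted p 0.00327) and in FMSP (0.81, 0.00803). Within mice 4 to 6 it was called in both as well (1.00, adjusted p 0.004 and 0.78, 0.017), as it was in DESeq2 (1.00, 0.0129 and 0.88, 0.0427). In DP it was also called after dropping the 3 libraries richest in hepatocyte markers (adjusted p 0.0294) and with only DP and NK libraries fitted (0.0453). The gene Gm50487 overlaps Cd96 in RefSeq.

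Cd160 (chr3:96798763-96829351) and Btla (chr16:45223705-45252895) encode the HVEM receptors, and they went different ways. Cd160 stood at 81.4, 69.3, 99.9 and 122 CPM in NK of mice 1, 4, 5 and 6, and at 496, 737 and 952 CPM in DN of mice 2, 4 and 6. FMSP of mice 3 to 6 gave 1098, 1011, 1009 and 1033 CPM and DP 1049, 831, 841 and 1152 CPM. No ILC1 library came near the NK range, and DN of mouse 2 was the lowest ILC1 library. Against NK, Cd160 was higher by 3.48 ± 0.24 log2 in FMSP (11.1-fold, edgeR adjusted p 2.32e-06), 3.38 ± 0.24 in DP (10.4-fold, 1.62e-06) and 2.97 ± 0.25 in DN (7.82-fold, 1.73e-05).

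Btla had its highest mean in DN, the ILC1s sorted as negative for granzyme C and its fate map. It stood at 10.0, 12.8 and 16.3 CPM in DN of mice 2, 4 and 6. In FMSP of mice 3 to 6 it stood at 8.37, 2.25, 5.18 and 8.36 CPM, in DP at 3.55, 5.12, 3.93 and 6.31 CPM, and in NK of mice 1, 4, 5 and 6 at 9.06, 5.86, 2.21 and 3.29 CPM. The 3 DN libraries lay above all 12 others. None of the differences was called: 1.35 ± 0.59 log2 for DN against NK (edgeR adjusted p 0.269), -1.46 ± 0.59 for DP against DN (0.432) and -1.11 ± 0.59 for FMSP against DN (0.763). B cells express Btla, and the 6 B cell markers summed to 673 to 746 CPM in DN, within the ranges of FMSP (543 to 1110) and DP (591 to 1153), and to 275 to 669 CPM in NK. Their part in the Btla levels was not tested.

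Havcr2 (chr11:46454931-46481255) and Ctla4 (chr1:60909025-60915832) were low and patchy. Havcr2 reached at most 4.46 CPM, in NK of mouse 5. Its mean was 2.52 ± 1.80 CPM in FMSP, 2.32 ± 2.03 in NK, 1.20 ± 0.915 in DP and 0.467 ± 0.809 in DN. It was at 0 counts in all 4 libraries of mouse 4, one for each population, and in DN of mouse 2, and was counted in the other 10. Over all genes, 156 were at 0 in all 4 libraries of mouse 4 with a mean of 100 counts or more in the other libraries, and 65 were so in mouse 6. Ctla4 reached at most 3.08 CPM, in DN of mouse 2, and was at 0 counts in 3 of 4 NK, 2 of 4 FMSP, 1 of 4 DP and 1 of 3 DN libraries. Neither gene was called in any comparison.

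**Figure D2:**
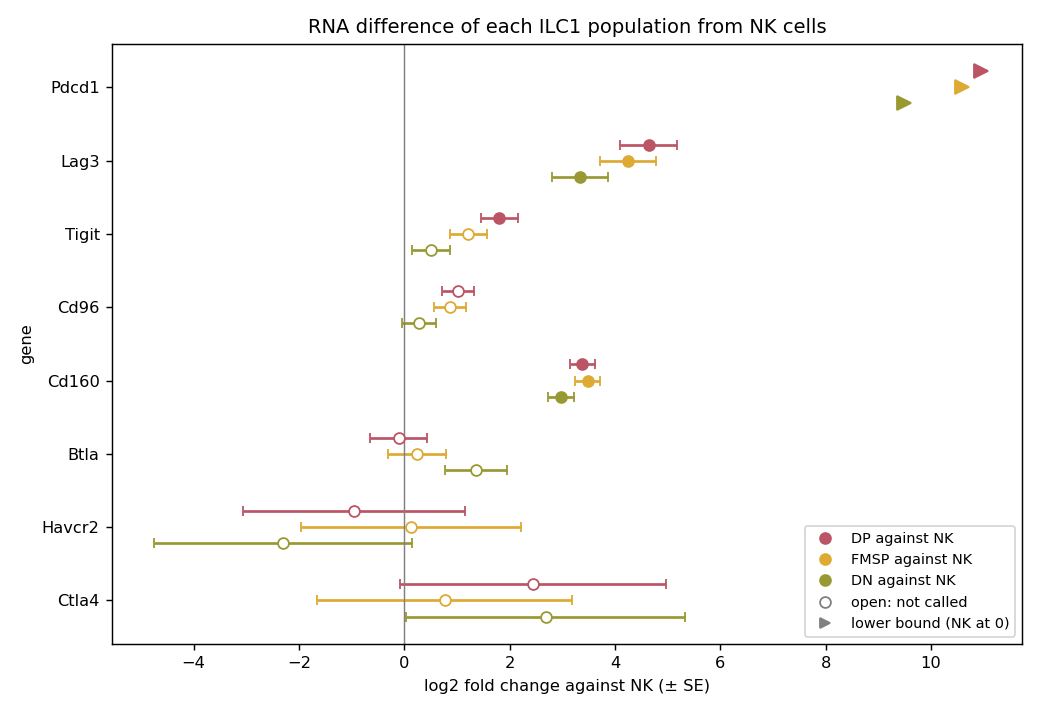
Log2 fold change of each gene in DP, FMSP and DN against NK with its SE (edgeR). Filled points are called and open points are not. Triangles, labelled lower bound, are the Pdcd1 ratios against a floor of 3 counts, since its NK libraries are at 0. They depend on that floor. Lag3 and Cd160 lie at 2.97 or higher in all 3 populations, Tigit is filled only in DP, and Havcr2 and Ctla4 have SEs of 2 or more.

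The second question was whether the receptors follow present or past granzyme C within ILC1s. Of the 8 genes, 0 were called between DP and DN, where 0.0584% of all genes tested were called (0.0117% higher and 0.0467% lower). By edgeR 4 had an unadjusted p under 0.05 (Tigit, Lag3, Cd96 and Btla), and DESeq2 called 1, Tigit (1.23 log2, adjusted p 0.0464). Over all genes tested, 1754 of 17124 had an unadjusted p under 0.05 in this comparison and DESeq2 called 510. Tigit was at 1.30 ± 0.38 log2 for DP against DN (edgeR adjusted p 0.33), Lag3 at 1.30 ± 0.52 (0.431) and Pdcd1 at 1.47 ± 0.72 (0.515). Cd160 was at 0.41 ± 0.24 (0.610) and Cd96 at 0.74 ± 0.34 (0.469). Between FMSP and DN 0 of 8 genes were called, with 0.00584% of all genes called, and 0 of the 8 had an unadjusted p under 0.05 or a DESeq2 call. Over all genes tested, 1164 of 17124 had an unadjusted p under 0.05 by edgeR there and DESeq2 called 233. Between DP and FMSP 0 of 8 were called, again with 0.00584% of all genes called, and 0 of the 8 had an unadjusted p under 0.05 or a DESeq2 call. Of all genes tested, 769 had an unadjusted p under 0.05 by edgeR there and DESeq2 called 224. The mean levels of Pdcd1, Lag3 and Tigit were highest in DP, then FMSP, then DN, then NK, but the neighbours DP, FMSP and DN in this order were not called apart. DN also had the highest NK marker sums of the ILC1 populations, and their part in this order was not tested. For Cd160 the means of FMSP (1038 ± 41.8 CPM) and DP (968 ± 158) stood above DN (728 ± 228).

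T cells express Pdcd1, Lag3, Tigit, Ctla4 and Btla, and the T cell markers were higher in the ILC1 libraries as given above. The list did not move as one. By mean level, 9 of its 14 genes were lower in DP than in DN (Cd3d, Cd3e, Trac, Cd8a, Cd8b1, Cd5, Cd6, Cd40lg and Bcl11b) and 5 were higher (Cd3g, Trbc1, Trbc2, Cd4 and Foxp3), and none of the 13 tested was called between them. Cd3g, a chain of the T cell receptor complex, stood at 749 ± 367 CPM in DP, 675 ± 286 in FMSP, 333 ± 205 in DN and 7.51 ± 6.82 in NK. Cd3e, another chain of that complex, stood at 29.5 ± 22.1 CPM in DP, 189 ± 127 in FMSP, 293 ± 210 in DN and 10.8 ± 10.4 in NK. Cd8a stood at 23.1 ± 18.3 CPM in DP against 3.11 ± 3.04 in NK, and Cd5 at 0.598 ± 0.776 CPM in DP against 19.7 ± 4.43 in DN. The part of T cell RNA in the receptor levels of DP, FMSP and DN was not tested.

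Across the 15 libraries, Pdcd1, Lag3 and Cd160 ran most closely together, with Pearson's r of log2 CPM of 0.95 for Pdcd1 with Lag3, 0.954 for Pdcd1 with Cd160 and 0.911 for Lag3 with Cd160. Tigit followed Pdcd1 with r = 0.789, Cd96 followed Pdcd1 with r = 0.573, and r between Btla and Tigit was -0.324. These are descriptions: the libraries share mice and span NK cells and ILC1s, and the part of the gap between them in each r was not tested. Among 9731 genes that reached a mean of 10 CPM in a population, the closest to Pdcd1 were Lrrn4 (r = 0.984), Asb2 (0.981) and Tle2 (0.981), and to Lag3 Snai3 (0.983), Acoxl (0.978) and Traf3ip2 (0.977). Closest to Cd160 were Tcrg-C4 (0.991), Zfp683 (0.989), which encodes the residency factor Hobit, and Tgtp1 (0.985). Tigit ran closest with Ntan1 (0.923), Fgr (0.911) and Glrx (0.904), and Cd96 with Lcp2 (0.944), Nedd9 (0.944) and Clnk (0.943). The best r was lower for Havcr2 (Nfkbia, 0.833), Btla (Gapvd1, 0.818) and Ctla4 (Heatr3, 0.816). Spearman's rank correlation with the gene of highest r was 0.875 for Pdcd1, 0.975 for Lag3 and 0.789 for Cd160. It was 0.95 for Tigit, 0.929 for Cd96, 0.852 for Havcr2, 0.786 for Btla and 0.799 for Ctla4.

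Of 15 genes for ligands of these receptors, 1 was called higher in each ILC1 population and 0 lower. It was Pdcd1lg2, which encodes the PD-1 ligand PD-L2, at 27.7 ± 1.59 CPM in DP, 25.2 ± 2.04 in FMSP and 18.1 ± 8.61 in DN against 3.78 ± 1.12 in NK. The log2 difference was 2.87 ± 0.34 in DP (edgeR adjusted p 9.14e-05), 2.74 ± 0.33 in FMSP (0.000142) and 2.26 ± 0.34 in DN (0.00171). The DN call was lost in a fit of DN and NK alone (2.27, 0.0767). Pdcd1 and this gene of a PD-1 ligand were thus called in the same 3 comparisons, which share the NK libraries. Fgl1, the hepatocyte gene for a LAG-3 ligand, stood at 1.69 ± 2.29 CPM or less in every population. Tnfrsf14, the HVEM gene, stood between 4.25 ± 0.579 CPM in NK and 5.89 ± 1.18 in FMSP.

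Among 9 other inhibitory receptor genes, 3 were higher and 2 lower than in NK in DP, 4 and 2 in FMSP, and 1 and 1 in DN. Cd200r1, the receptor for CD200, stood at 202 ± 65.0 CPM in DP, 170 ± 51.8 in FMSP and 88 ± 60.0 in DN against 1.10 ± 1.28 in NK (log2 difference 7.51 ± 1.12, 7.26 ± 1.11 and 6.31 ± 1.08, edgeR adjusted p 0.00071, 0.000963 and 0.00366). Its DN call was lost in a fit of DN and NK alone (6.32, 0.0767). Pvrig, another receptor of the nectin family, was higher in DP (65.4 ± 5.30 against 27.5 ± 6.07 CPM, log2 1.25 ± 0.22, adjusted p 0.00293). Klrg1, which binds cadherins and marks mature NK cells, was lower by 5.09 ± 0.65 log2 in DP and by 4.31 ± 0.63 in FMSP (adjusted p 0.000192 and 0.000668). Lair1, a collagen receptor, was lower in both (4.87 ± 3.12 and 5.20 ± 3.82 CPM against 62.7 ± 5.54 in NK). Other calls were lost without 1 of several libraries. Pvrig in FMSP was lost without NK of mouse 1 or 4 or FMSP of mouse 3 or 4 (lowest value 0.79, adjusted p 0.0914), and Vsir in FMSP without NK of mouse 4, 5 or 6 or FMSP of mouse 3, 4 or 5 (0.79 without FMSP of mouse 3, 0.133). Klrg1 in DN was lost without DN of mouse 2 (-2.83, 0.084) or 6 (-3.11, 0.0696) and with the mouse as a block (-2.86, 0.0882). Cd101 was lost in DP without NK of mouse 1, 4 or 6 or DP of mouse 3 or 5 (6.26 without DP of mouse 5, 0.0567), and in FMSP without NK of mouse 4 (6.12, 0.0549) or 6 (6.13, 0.0536).

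Of 12 costimulatory genes, 1 was higher in DP (Icos), 2 in FMSP (Icos and Tnfsf14) and 1 in DN (Icos), and 1 was lower, Tnfrsf9 in DN. Tnfrsf9, which encodes 4-1BB, stood at 130 ± 29.6 CPM in DN against 530 ± 181 in NK (log2 -2.03 ± 0.38, edgeR adjusted p 0.00667). Icos, a relative of CD28, stood at 56.6 ± 12.3 CPM in DP, 57.4 ± 3.97 in FMSP and 60.0 ± 36.2 in DN against 23.5 ± 3.06 in NK. Its calls were lost without most single libraries: in DP without each but DP of mouse 4 (1.18 without NK of mouse 5, adjusted p 0.129), in FMSP without each (1.20 without NK of mouse 5, 0.122), and in DN without each but DN of mouse 2 (0.82 without DN of mouse 6, 0.254). Tnfsf14, which encodes the HVEM ligand LIGHT, was lost in FMSP without each library but NK of mouse 6 (1.32 without NK of mouse 4, 0.141).

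Of 17 genes for signalling below inhibitory receptors, 1 was higher and 2 lower in DP, 0 and 2 in FMSP, and 0 and 1 in DN. Fyn, a Src family kinase, was lower in all 3, at 335 ± 29.7 CPM in DP, 385 ± 56.2 in FMSP and 406 ± 103 in DN against 962 ± 61.5 in NK (log2 -1.52 ± 0.18, -1.32 ± 0.18 and -1.24 ± 0.20). Sh2d1a, which encodes the adaptor SAP, was lower in DP (3.26 ± 1.48 CPM) and FMSP (6.45 ± 6.54) than in NK (111 ± 33.4). Dok1, an adaptor, was the gene higher in DP, and its call was lost without each library of the comparison but NK of mouse 1 (0.89 without NK of mouse 5, edgeR adjusted p 0.164). The 2 sheddases Adam10 and Adam17, which cleave LAG-3 and TIM-3 from the surface, were not called in any of the 3.

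Of 15 genes for factors that regulate checkpoint receptors, 2 were higher in each ILC1 population, Tox and Maf. In DP 1 was lower (Eomes), in FMSP 2 (Eomes and Prdm1) and in DN 0. Tox, which sustains PD-1 in exhausted T cells, stood at 184 ± 40.6 CPM in DP, 172 ± 12.03 in FMSP and 99.4 ± 35.9 in DN against 45.9 ± 10.8 in NK (log2 2.01 ± 0.26, 1.91 ± 0.26 and 1.12 ± 0.27, edgeR adjusted p 0.000192, 0.000307 and 0.0336). The DN call of Tox was lost without DN of mouse 4 (0.88, 0.147) or 6 (1.01, 0.117) or NK of mouse 1, 4 or 6. Maf stood at 83.9 ± 23.6, 70.5 ± 20.7 and 65.0 ± 35.4 CPM against 15.3 ± 5.70 in NK (log2 2.46 ± 0.41, 2.21 ± 0.40 and 2.09 ± 0.42), and its DN call was lost without DN of mouse 6 (1.81, 0.0565). Eomes, a T-box factor of NK cells, was lower by 7.30 ± 0.88 log2 in DP and 6.32 ± 0.84 in FMSP, and was the gene of this list called lower in DP than in DN (-4.85 ± 0.80, adjusted p 0.0452), a call lost without DP of mouse 4, 5 or 6 or DN of mouse 2 or 4 (-5.01 without DP of mouse 5, 0.18) and with the mouse as a block (-5.50, 0.123). Prdm1, which encodes Blimp-1, was lower in FMSP (-1.72 ± 0.36, adjusted p 0.0106), a call lost after dropping the libraries richest in hepatocyte markers (-1.41, 0.0593).

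ATAC-seq asked whether chromatin at these genes differs between NK cells and ILC1s and between tissues. The authors assigned 5 peaks to Tigit, 5 to Cd96, 4 each to Pdcd1, Lag3 and Ctla4, 3 to Havcr2, 2 to Btla and 1 to Cd160. Positions are those of the deposited table in mm10, and distances run from the RefSeq start to the peak's centre. Lag3 has no entry among the RefSeq promoters, so its distances run from the gene's end of higher coordinate. Pdcd1 has no peak over its start, the nearest centres being 3.48 kb upstream and 4.20 kb downstream. The Cd160 peak lies over the internal start. In the liver, 7 of the 28 peaks were called higher in ILC1 than in NK and 3 lower, where 18.7% of all peaks were called (9.83% higher and 8.85% lower). Without liver ILC1 replicate 2 the count was 4 and without liver NK replicate 1 it was 6, while all peaks called went from 9583 to 4298 and 5753. ILC1s of both tissues against NK cells of both tissues gave 16 higher and 5 lower, with 44.0% of all peaks called (21.0% higher and 23.1% lower). The 2 comparisons share libraries. All p-values rest on 2 libraries a group.

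**Figure D3:**
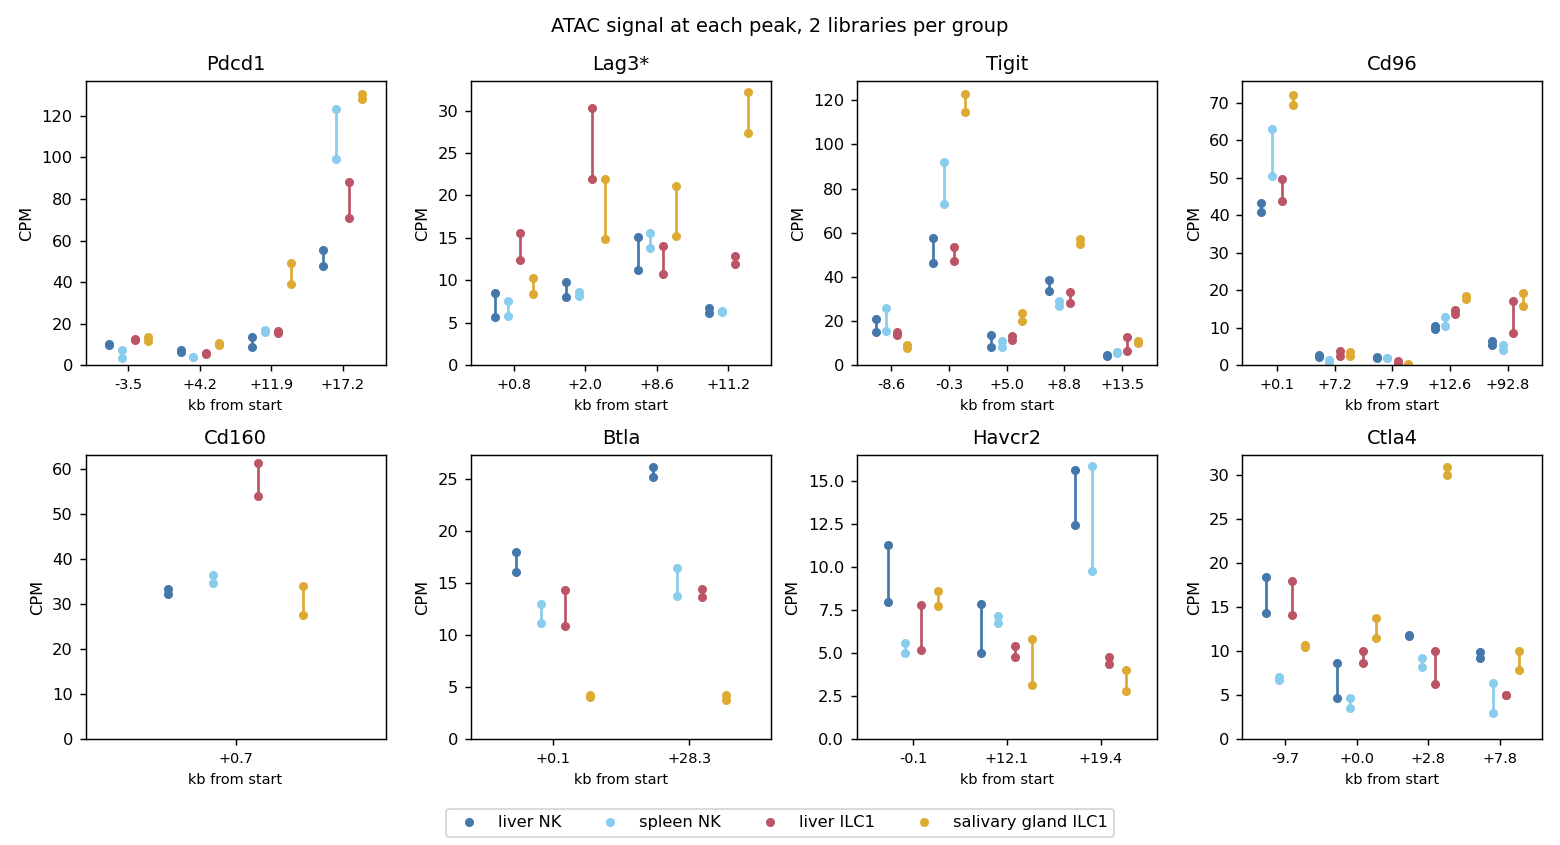
ATAC signal in CPM at each of the 28 peaks, ordered by distance in kb from the gene's start (Lag3* from its end of higher coordinate); 2 points joined by a line are the 2 libraries of a group. The mean of liver ILC1 stands highest at both promoter peaks of Lag3 and at Cd160, salivary gland ILC1 at the Tigit promoter and the Ctla4 intron, and liver NK at the distal Btla peak.

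Lag3 had the most peaks higher in liver ILC1, 3 of 4. The promoter peak chr6:124909834-124910972 stood at 21.99 and 30.3 CPM in the 2 liver ILC1 libraries and at 9.79 and 8.04 CPM in liver NK. It was higher by 1.56 ± 0.23 log2 (2.94-fold, edgeR adjusted p 2.11e-09), and this call held without any 1 library. The second promoter peak, chr6:124911248-124912076, stood at 12.4 and 15.6 against 5.74 and 8.53 CPM (1.00 ± 0.29, adjusted p 0.00529), and its call was lost without liver NK replicate 1 (0.73, 0.186) or liver ILC1 replicate 2 (0.77, 0.179). An intergenic peak at 11.2 kb, chr6:124900816-124901703, stood at 11.97 and 12.9 against 6.79 and 6.11 CPM (0.94 ± 0.26, 0.00354), lost without liver ILC1 replicate 2 (0.84, 0.073). At the fourth, 39 bases outside the gene, the ranges of 10.8 to 14.0 and 11.2 to 15.1 CPM overlapped.

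The Cd160 promoter peak chr3:96812522-96815155, which covers the internal window printed above with its RUNX and TCF-1 motifs, stood at 54.0 and 61.4 CPM in liver ILC1 and 33.3 and 32.3 CPM in liver NK. It was higher by 0.82 ± 0.19 log2 (edgeR adjusted p 0.000269), also without any 1 library. Salivary gland ILC1 stood at 27.7 and 34.0 CPM and spleen NK at 34.6 and 36.4 CPM, all below both liver ILC1 libraries. Salivary gland against liver ILC1 gave -0.90 ± 0.18 (adjusted p 3.79e-06).

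At Pdcd1, 1 of 4 peaks was called in liver ILC1 against liver NK. This was the strongest peak of the gene, chr1:94034534-94036157 at 17.2 kb, 2148 bases beyond the gene, at 70.9 and 88.1 against 47.9 and 55.3 CPM (0.63 ± 0.21, edgeR adjusted p 0.0194). The call was lost without liver ILC1 replicate 2 (0.41, 0.19), without liver NK replicate 1 (0.53, 0.206) and with only the 2 groups fitted (0.62, 0.0943). Spleen NK stood at 123 and 99.4 CPM at the same peak, above liver NK by 1.11 ± 0.21 (adjusted p 2.51e-06), and its libraries lay above those of liver ILC1. The upstream peak, chr1:94055489-94056585, stood at 12.6 and 12.3 CPM in liver ILC1 and 10.1 and 9.97 CPM in liver NK, where Pdcd1 RNA was at 0 counts (0.31 ± 0.27, adjusted p 0.456).

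Tigit had 1 of 5 peaks called higher in liver ILC1, an intron peak at 13.5 kb, chr16:43650291-43651088 (6.58 and 12.6 against 4.05 and 4.83 CPM, 1.15 ± 0.32, edgeR adjusted p 0.004). It was lost without liver ILC1 replicate 2 (0.53, 0.495) or liver NK replicate 1 (1.02, 0.0851). The Tigit promoter peak, chr16:43663521-43665365, stood at 47.1 and 53.7 CPM in liver ILC1 and 46.5 and 57.6 in liver NK, which overlap. For Cd96 the called peak was intergenic, chr16:46026985-46027843, 7809 bases beyond the gene, at 8.53 and 17.2 against 6.40 and 5.31 CPM (1.16 ± 0.28, adjusted p 0.000733), lost without liver ILC1 replicate 2 (0.49, 0.478). With both tissues together this Cd96 peak was higher by 1.53 ± 0.19 (15.2 against 5.26 CPM, adjusted p 3.81e-14), and that call held without any 1 library.

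The 3 peaks called lower in liver ILC1 belonged to Havcr2, Btla and Ctla4. The Havcr2 intron peak chr11:46474002-46474761, 19.45 kb into the gene, stood at 4.79 and 4.39 CPM in liver ILC1 and 12.4 and 15.6 CPM in liver NK (-1.61 ± 0.31, edgeR adjusted p 5.18e-06). Spleen NK stood at 9.74 and 15.8 CPM and salivary gland ILC1 at 4.04 and 2.80 CPM, so both NK groups lay above both ILC1 groups (-1.76 ± 0.21 over both tissues, adjusted p 8.56e-16). The distal Btla exon peak, chr16:45251554-45253727 at 28.3 kb, stood at 14.5 and 13.7 against 25.2 and 26.2 CPM (-0.87 ± 0.23, 0.00179). Both calls held without any 1 library. The Ctla4 intergenic peak chr1:60916378-60917217 stood at 5.09 and 5.07 against 9.27 and 9.97 CPM (-0.92 ± 0.32, 0.0271), a call lost without each of the 4 liver libraries (-0.87 without liver NK replicate 2, adjusted p between 0.0616 and 0.138) and in DESeq2 (-0.94, 0.0671). No other Ctla4 peak was called in the liver. Over both tissues, the Ctla4 promoter peak over the start, chr1:60908693-60909373, was higher in ILC1 (1.02 ± 0.21, edgeR adjusted p 5.13e-06). So was the Ctla4 intron peak (0.62 ± 0.17, 0.000786), and the other Ctla4 peaks were not called there.

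**Figure D4:**
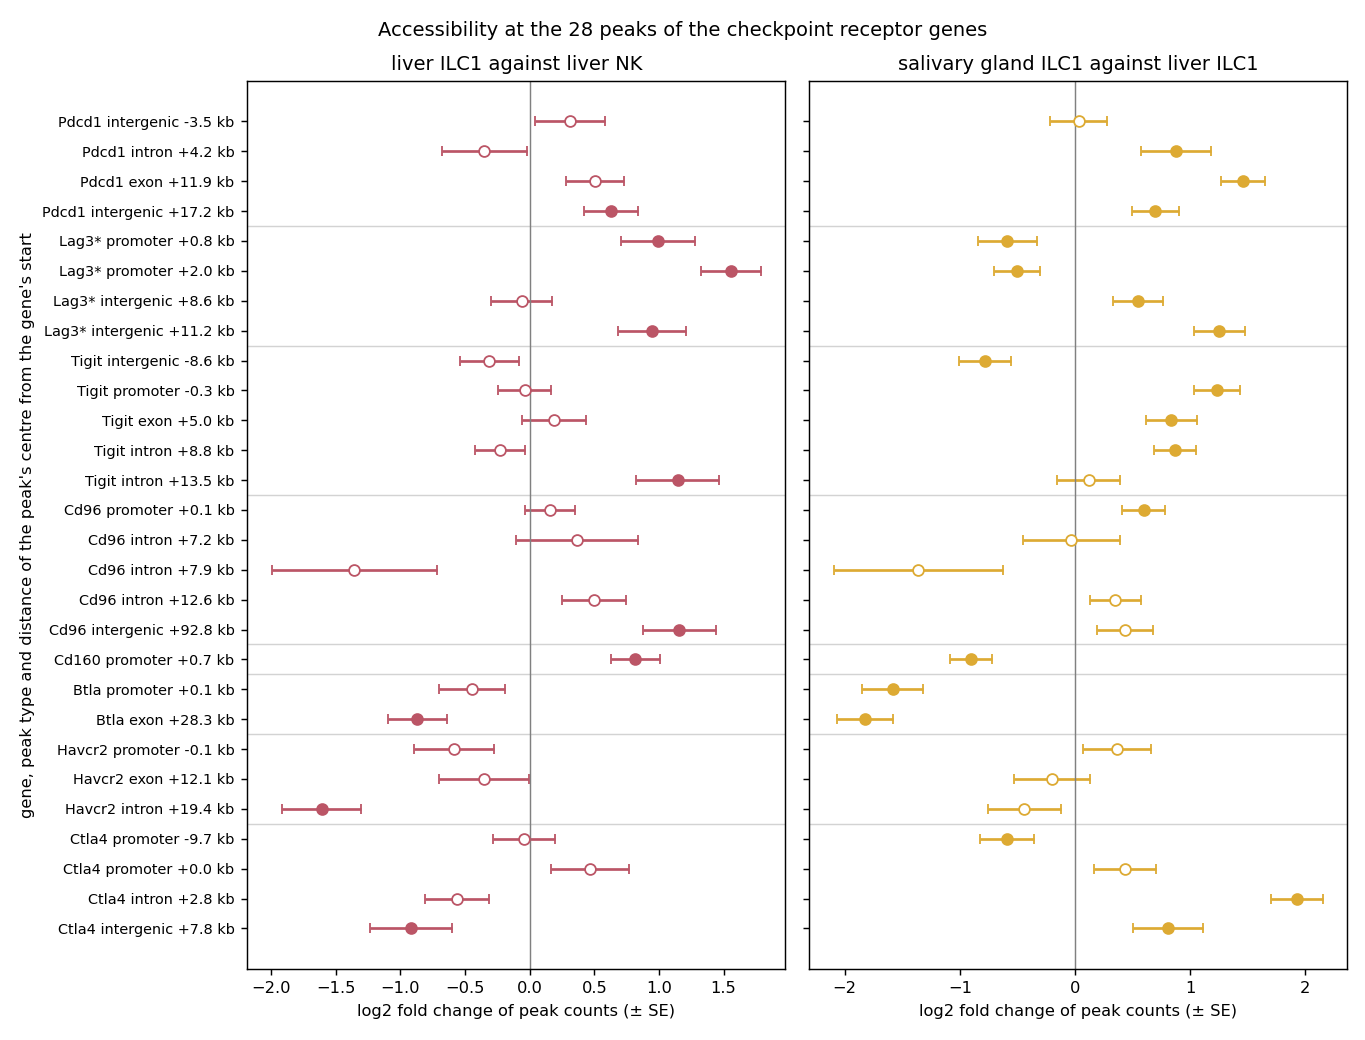
Log2 fold change with SE (edgeR) at the 28 peaks, for liver ILC1 against liver NK (left) and salivary gland ILC1 against liver ILC1 (right); filled points are called, and Lag3* distances run from the gene's end of higher coordinate. The Lag3 promoter peaks lie right of 0 on the left and left of 0 on the right, and the Btla peaks lie left of 0 in both.

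Between tissues, salivary gland ILC1 differed from liver ILC1 at 18 of the 28 peaks, 11 higher and 7 lower, where 48.7% of all peaks were called (22.8% higher and 25.9% lower). The Ctla4 intron peak chr1:60911406-60912283 rose most, at 30.0 and 30.9 CPM in salivary gland and 10.0 and 6.34 CPM in liver ILC1 (1.93 ± 0.23, edgeR adjusted p 8.55e-16). The Pdcd1 exon peak chr1:94040183-94041077 stood at 49.1 and 39.0 against 16.5 and 15.5 CPM (1.46 ± 0.19, 1.07e-12). The Tigit promoter peak stood at 123 and 115 against 47.1 and 53.7 CPM (1.23 ± 0.20, 6.96e-09), and the intergenic Lag3 peak at 32.2 and 27.4 against 11.97 and 12.9 CPM (1.25 ± 0.22, 1.00e-07). These 4 calls held without any 1 library.

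Both Btla peaks were lower in salivary gland ILC1. The promoter peak chr16:45223761-45225204 stood at 4.04 and 4.28 against 14.4 and 10.9 CPM (-1.58 ± 0.26, edgeR adjusted p 2.05e-08), and the distal peak at 4.24 and 3.75 against 14.5 and 13.7 CPM (-1.82 ± 0.25, 2.32e-12). At Lag3, beside the higher intergenic peak, both promoter peaks had lower values in salivary gland ILC1, with calls that depended on the libraries and the scaling. The main promoter peak was lower in salivary gland ILC1 (14.9 and 21.99 CPM, -0.50 ± 0.20, adjusted p 0.03), but that call was lost without liver ILC1 replicate 2 (-0.27, 0.401) or salivary gland ILC1 replicate 1 (-0.30, 0.351), under RLE scaling (-0.45, 0.0546) and in DESeq2 (-0.45, 0.159). The second promoter peak gave -0.59 ± 0.26 (adjusted p 0.0471), lost without liver ILC1 replicate 2 (-0.44, 0.273) or either salivary gland library (-0.50, 0.203 and -0.80, 0.0517), under RLE scaling (-0.54, 0.0656) and in DESeq2 (-0.54, 0.134). RNA of salivary gland cells was not analysed here.

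Spleen NK differed from liver NK at 9 of the 28 peaks, 3 higher and 6 lower, where 40.6% of all peaks were called (20.9% higher and 19.8% lower). With library totals in place of TMM the calls were 1 higher and 11 lower, where 23981 of all 51292 peaks were called and 5277 of these were higher, and the median over all peaks moved from -0.11 to -0.48. The count was 2 without spleen NK replicate 1 and 5 without liver NK replicate 1, while all peaks called went from 20845 to 11383 and 11046. The upstream Ctla4 peak, which the authors typed as a promoter 9.66 kb before the start, stood at 7.12 and 6.74 CPM in spleen NK and 18.4 and 14.3 in liver NK (-1.24 ± 0.25, edgeR adjusted p 1.60e-05). This peak and the distal Pdcd1 peak were called without any 1 library and under each scaling. The Lag3 peaks and the Cd160 peak were not called between the NK groups.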

How the data were processed

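RNA values were expected counts per gene that the authors deposited, and the submitters' processing notes name Salmon 1.6 and DESeq2. ATAC values were read counts per peak that the authors deposited, with each peak's gene and type, and the notes name Bowtie2, SAMtools, MACS2 and mm10. How these tools were run, and whether peaks were called on pooled libraries, is not given in the sources used here. Values went into edgeR as deposited and were rounded to whole numbers for DESeq2. RNA libraries held 51641248 to 73309063 counts and ATAC libraries 5609587 to 26944890, counted without molecular identifiers. SEs and p-values rest on the spread between libraries as well as on counting error. The RNA table had 26 entries with a date for a symbol (0.265% of counts).

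The quasi-likelihood test of edgeR 4.0.16 (R 4.3.3) was fitted over all 15 RNA libraries and over all 8 ATAC libraries, with 1 mean per group, TMM scaling and filterByExpr at a minimum count of 10. Benjamini-Hochberg adjustment ran over all 17124 genes or 51292 peaks, with 0.05 as the threshold. SE is the log2 fold change over the root of F. A group at 0 got a floor of 3 counts over the group. The scripts were tested on simulated data. Alternatives were RLE scaling, library totals, DESeq2 1.42.0, no filter, a replicate block, mice 4 to 6 only, dropping the libraries richest in hepatocyte markers, fits of the compared groups alone, and leaving out each library. RNA libraries of 1 mouse number come from the same animal: their deviations from the group means correlated at a median r of 0.113 (16 pairs, 0.0336 to 0.469), beside -0.0266 for 68 pairs of different mice. The ATAC labels number mouse replicates without saying that a number is shared between groups.

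Named were all 8 receptor genes, their 28 peaks by call, the list genes called in at least 1 RNA comparison with no overlap between its libraries, ligands at low levels, and the 3 genes most like each receptor by Pearson's r of log2 CPM, predicted genes left out. Tnfrsf14 and the T cell genes given with levels were named after their values were seen. The receptors, gene lists and tests were chosen with earlier results of these data known, so they are no independent evidence. Sequences are RefSeq promoters of GRCm38.p6.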

Additional observations from a re-analysis of the deposited data

Results flagged for a closer look

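Of 23 groups of 4 libraries examined for a library that stands apart, 1 had one. Ctla4 in NK stood at 0.876 CPM in the library of mouse 5 and at 0 counts in the other 3 NK libraries. With the others at 0, any count meets the rule, so the flag shows no more than these zeros.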

How the results depend on the processing

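Among the gene and peak differences that were recomputed, no direction reversed under any alternative run. Medians over all features could change sign. For FMSP against NK the median went from 0.11 to -0.04 after dropping the libraries richest in hepatocyte markers. Leaving out 1 library at a time, the receptor genes called numbered 4 to 4 in DP against NK, 3 to 4 in FMSP and 3 to 3 in DN, and 0 to 0 in each comparison among ILC1s. The peaks called numbered 4 to 10 for liver ILC1 against liver NK, 16 to 20 for both ILC1 groups against both NK groups, 13 to 16 between the ILC1 groups and 2 to 9 between the NK groups. DESeq2 called 5 receptor genes in FMSP against NK and 1 in DP against DN, where it called 1453 and 510 of all genes and edgeR 697 and 10. With the mouse as a block the counts were 5, 4 and 3 of the 8 genes against NK (DP, FMSP and DN) and 0 among ILC1s, while all genes called went from 699, 697 and 512 to 1647, 1682 and 1191, and from 10 to 22 for DP against DN; the block ended or made no call of a named gene beyond those given beside Cd96, Klrg1 and Eomes. The ATAC numbers share only a number: same-numbered libraries correlated at -0.12 to 0.179, and the block left the counts at 10, 21, 18 and 9. With library totals the median of all features moved from 0.17 to 0.37 for DN against NK, to -0.29 between the ILC1 tissues and to -0.48 between the NK tissues. Of the values recomputed without 1 library, 427 RNA and 245 ATAC values kept direction and side of the threshold, 65 and 71 lost the call and 1 RNA value gained it. Under the other alternatives 483 and 308 kept both, 25 and 19 lost the call and 12 RNA values gained it; the cause was not tested. With 2 ATAC libraries a group, leaving 1 out assumes that the lone library varies like the others. Havcr2 had 70 to 275 counts in the 10 libraries where it was counted and Ctla4 7 to 228 in 8, beside exact zeros in the others; the cause of the zeros was not tested.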
